A study of Mus musculus with 2 samples.

Results

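The genes described here encode the nuclear subunits of the mitochondrial respiratory chain and of ATP synthase. They were chosen by name, as the protein-coding genes outside chromosome M whose mouse symbols belong to the Nduf, Sdh, Uqcr, Cox4 to Cox8 and Atp5 series, with Cyc1, Cycs and Cyct and without the assembly factors whose names begin with Ndufaf. The rule found 88 of the 54438 genes in the tables: 37 of complex I, 4 of complex II, 9 of complex III, 18 of complex IV, 18 of complex V and 2 forms of cytochrome c. They carry 87 symbols, since Atp5o stands for 2 gene identifiers. The rule uses names only, and the group was chosen with earlier results of these data known.

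RNA was profiled in cells labelled as mammary gland basal cells, the outer layer of the ducts, taken from the glands of wild type C57BL/6 mice at 8 weeks of age by flow cytometry. The series is about basal cells that carry Pd-l1, a ligand of an inhibitory T cell receptor, and basal cells that do not. Its 2 libraries, called W1 and W2, have the same labels apart from their titles, so neither was placed in a Pd-l1 class and each is described as a single library without a replicate. A Smart-seq reagent, a chemistry for very small inputs, and a stranded library kit were used; the sources used here do not give the antibodies, the gates or how many mice and cells entered each library.

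The respiratory chain passes electrons from NADH (complex I) and succinate (complex II) through coenzyme Q to complex III, and from there by cytochrome c to complex IV, which reduces oxygen. Complexes I, III and IV pump protons across the inner mitochondrial membrane, and complex V uses the gradient to make ATP. Complex II is built from nuclear genes only, whereas the other complexes join nuclear subunits to subunits made from mitochondrial DNA. Several complex IV subunits exist in a widely expressed form and in forms known from muscle, testis or lung.

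Library W1 went against its label. Levels are in TPM, transcript abundance corrected for length and scaled to the same total in each library. Of 10 basal markers, all 9 that were compared were higher in W2, and their summed level was 54.7 TPM in W1 and 36793 TPM in W2. Krt5, a basal keratin, had 0 reads in W1 and 3923 in W2. Trp63, the basal marker not compared, had 0 reads in both libraries. Of 10 endothelial markers, all 8 compared were higher in W1, with sums of 4753 and 5.93 TPM, and Cdh5, the cadherin of endothelial junctions, had 6815 and 0 reads. Luminal markers summed to 32.8 and 4259 TPM, fibroblast markers to 3.19 and 206 TPM, leukocyte markers to 88.7 and 7.17 TPM, pericyte markers to 62.8 and 86.7 TPM and adipocyte markers to 7.68 and 12.7 TPM, in W1 and W2; 5 erythroid markers were at 0 in both. Of the 8 luminal markers compared, 6 were higher in W2, among them Krt8 at 1691 TPM there. Luminal Kit was higher in W1, with 67 and 0 reads. W1 held 3055838 counted reads and W2 held 3800026. A single gene, Gm23935, took 27.7% of TPM in W1 and 4.13% in W2, messenger RNAs of chromosome M took 2.0% and 12.9%, and nuclear protein-coding genes took 39.2% and 45.9%. Every difference below is between libraries that differ in all of these ways, whose part in the results was not tested.

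The nuclear subunits held a similar share of both libraries. Their summed level was 7688 TPM in W1 and 9225 TPM in W2, or 0.769% and 0.923% of all TPM, a ratio of W2 to W1 of 1.20 that became 0.972 with FPKM, the other deposited unit, and 0.94 with TPM divided by size factors. The sums rest on 16594 and 21405 reads. A change in these bulk sums could come from fewer cells of a type or from less RNA per cell, which cannot be told apart.

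Of the 88 genes, 63 had a value above 0 in at least 1 library and 25 were listed at 0 in both. A total of 55 reached 1 TPM in at least 1 library and were compared, as the log2 ratio of TPM + 1 in W1 over W2. Adding 1 pulls the ratios of low genes toward 0. Genes that differed by at least 2-fold on this scale were called higher in 1 library. Of the 55, 11 were higher in W1 (20%) and 17 in W2 (30.9%), while 27 lay within 2-fold. Over all 12587 genes compared, 34.7% were higher in W1 and 32.9% in W2, so the share of subunits higher in W2 is near the background and the share higher in W1 is below it. With 1 TPM required in both libraries, 2 of 40 subunits were higher in W1 and 12 in W2 (5% and 30%), against 16.6% and 28.9% of 6804 genes. With at least 20 reads over both libraries, it was 5 and 12 of 41 subunits, against 28.8% and 33.4% of 9379 genes. The median log2 ratio of the subunits was -0.33, against -0.07 over all genes compared. Other scalings moved the median of all genes by 0.30 (FPKM in place of TPM), by 0.36 (size factors) and by -0.28 (chromosome M and ribosomal protein genes left out). The median of the subunits moved with it, to -0.031, 0.025 and -0.59, and stayed below that of all genes by 0.26, 0.26 and 0.24. The split of 11 against 17 became 12 against 12 with FPKM and 13 against 13 with size factors. With FPKM this is 21.8% of subunits each way, against 37.8% of all genes higher in W1 and 28.1% in W2. With size factors it is 23.2% each way, against 38.9% and 27.7%.

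**Figure D1:**
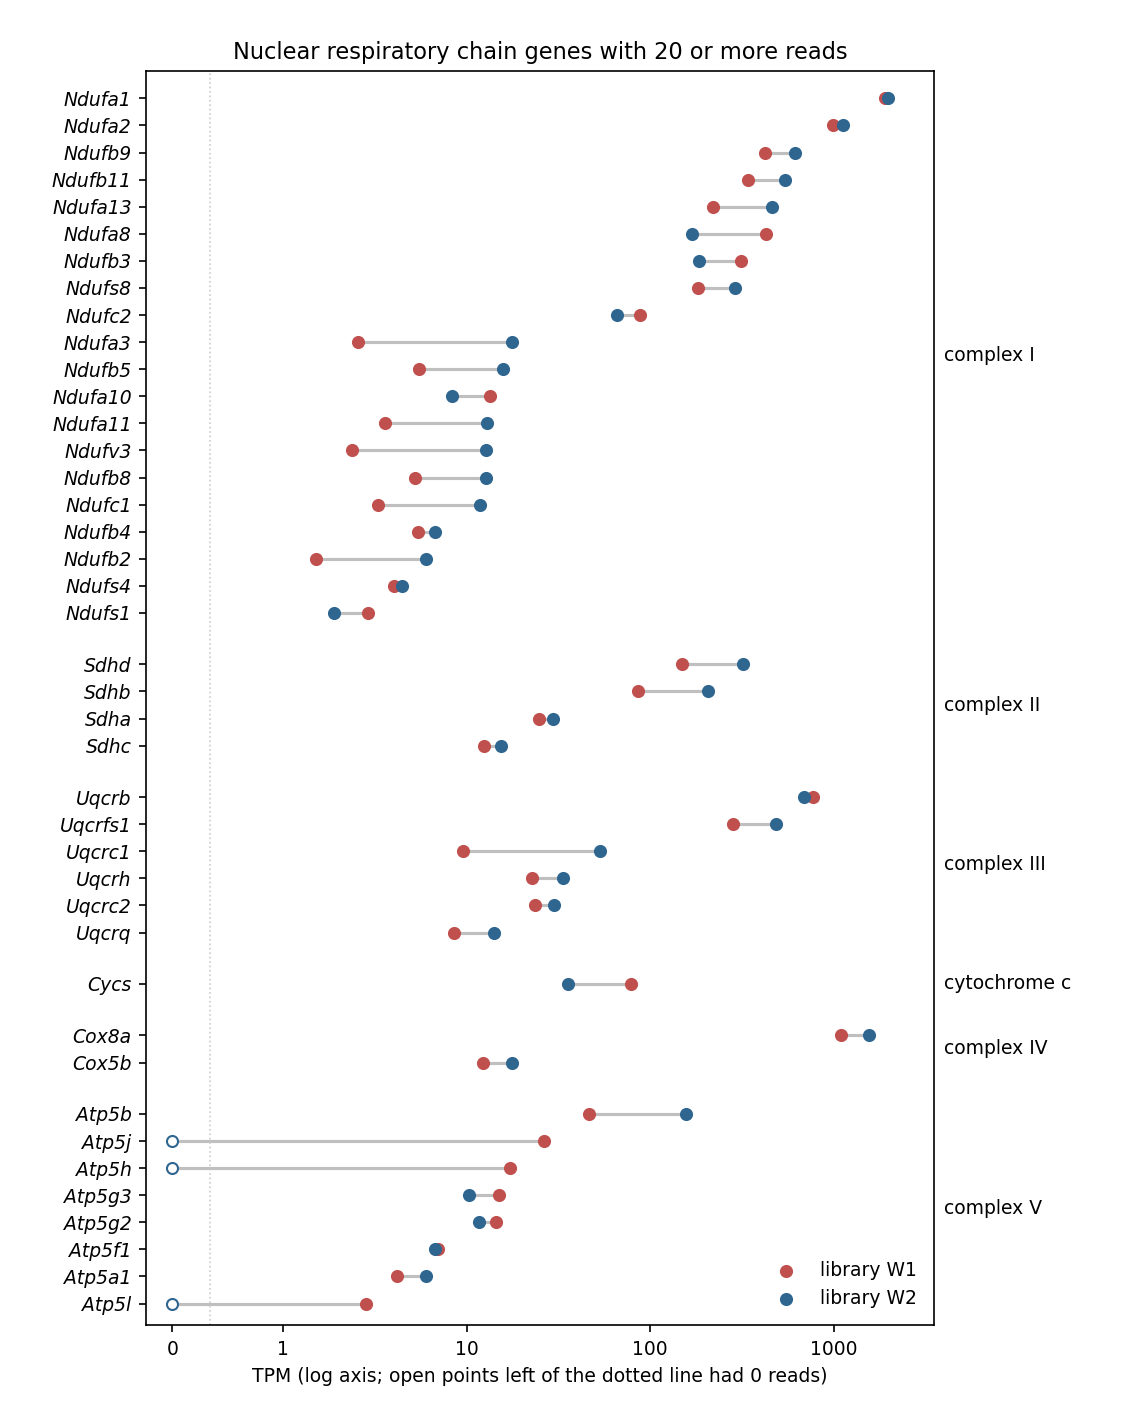
Levels of the subunit genes with 20 or more reads over both libraries, by complex, as TPM on a log axis with a break to 0; red points are W1, blue points are W2, grey lines join the values of a gene and open points had 0 reads. Ndufa1, at 1911 and 1968 TPM, and Cox8a, at 1094 and 1549 TPM, lie farthest right, and Atp5j, Atp5h and Atp5l have an open point for W2.

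Transcripts with little sequence of their own seldom had reads. This was counted by private 50-mers, the stretches of 50 bases found in no other listed transcript. Of the subunits' 383 transcripts, 92 had a read in at least 1 library. The share was 2.33% (3 of 129) with under 50 private 50-mers, 18.3% (22 of 120) from 50 up to 200, 37.2% (29 of 78) from 200 up to 500 and 67.9% (38 of 56) with 500 or more. Over all transcripts in the tables the same shares were 2.99%, 9.78%, 18.9% and 35.8%. Longer transcripts also hold more private 50-mers, and the part of length was not tested. A subunit at 0 is not shown to be silent, and levels of genes whose isoforms overlap may be too low in both libraries. Of the 92 transcripts read, 45 had reads in both libraries, 27 in W1 only and 20 in W2 only. The same counts over all transcripts are not given here, so this split is not shown to be particular to the subunits.

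**Figure D2:**
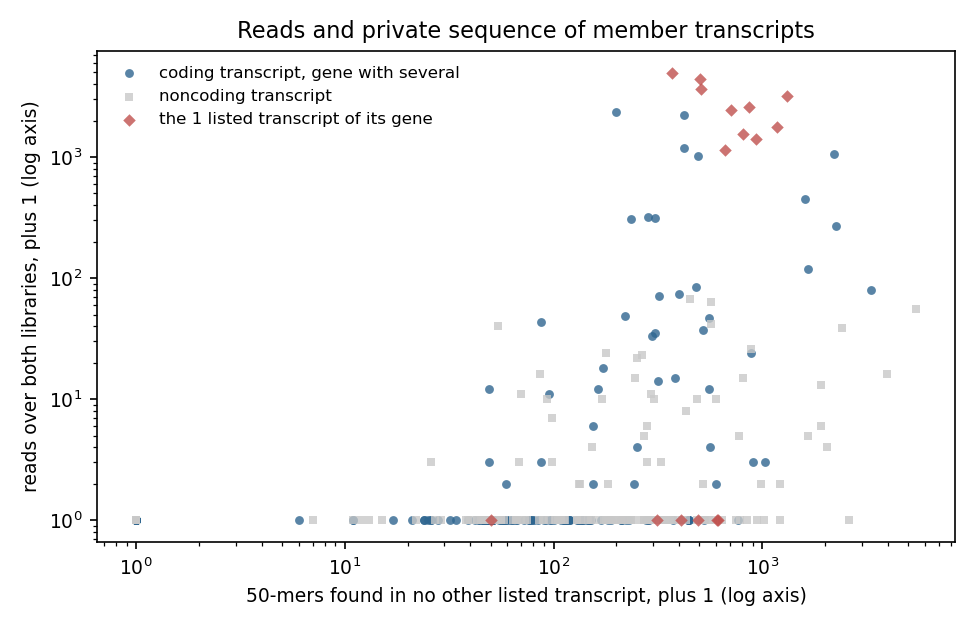
Reads over both libraries plus 1 against private 50-mers plus 1, both on log axes, with 1 point per subunit transcript: blue circles are coding transcripts of genes with several transcripts, grey squares are noncoding transcripts and red diamonds are the 1 listed transcript of their gene. The share of transcripts with reads goes from 2.33% with under 50 private 50-mers to 67.9% with 500 or more.

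For 16 of the subunit genes a single transcript is listed, so their reads are not divided between isoforms. Of these, 10 were above 0 in both libraries and held 71.4% of the subunits' reads in each library, while 6 were at 0 in both. The 10 ranged from 150 to 1911 TPM in W1 (median 328) and from 170 to 1968 TPM in W2 (median 471). Only Ndufa8 was called higher in W1, Ndufa13 and Sdhd were called higher in W2, and the other 7 lay within 2-fold. Across these 10 genes, which share both libraries, Pearson's r between the libraries was 0.791 and Spearman's rho was 0.612. Among all 1515 nuclear protein-coding genes with 1 listed transcript that were compared, 28.9% were higher in W1 and 38.5% in W2, and their median log2 ratio was -0.39, beside -0.58 for the 10 subunits.

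**Figure D3:**
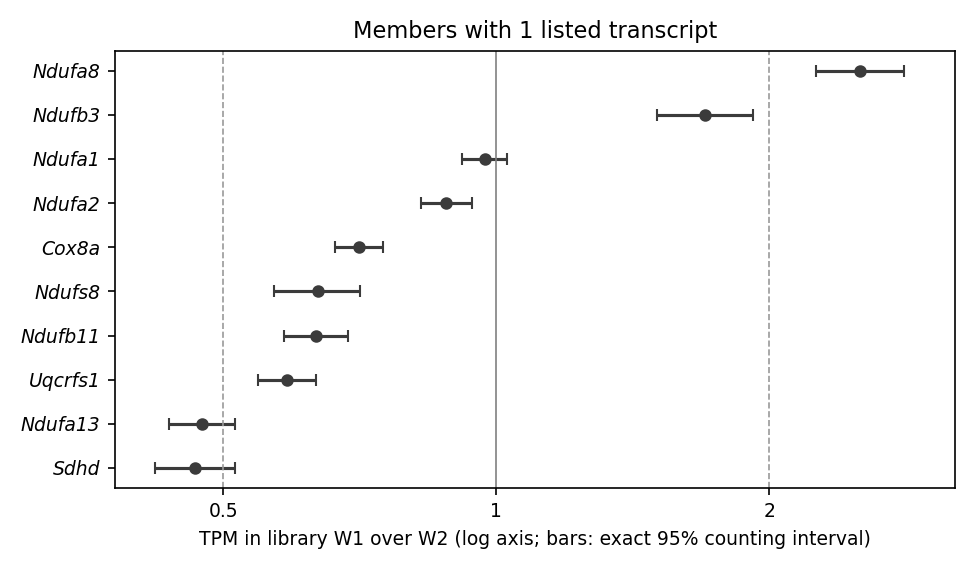
Ratio of TPM in W1 over W2, on a log axis, for the 10 subunits with 1 listed transcript and reads; bars are exact counting intervals at 95% and dashed lines mark 2-fold. Ndufa8 (2.51) and Ndufb3 (1.70) lie to the right of 1, the interval of Ndufa1 spans 1, and the other 7 lie to the left.

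Complex I, the NADH dehydrogenase, had 29 of its 37 genes above 0 and 26 compared, of which 4 were higher in W1, 9 were higher in W2 and 13 lay within 2-fold. Its summed level was 4959 TPM in W1 and 5536 TPM in W2. The median log2 ratio was -0.23, turned to 0.06 with FPKM and 0.10 with size factors, and so had no direction that held. The nuclear core subunits carry the flavin and iron-sulfur clusters, and the accessory subunits surround them. Of the 30 accessory subunits, 22 were compared, with 3 higher in W1, 8 in W2 and 11 within 2-fold.

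Ndufa1, a small membrane-bound accessory subunit encoded on chromosome X (37187588 to 37191163, minus strand, GRCm38, as for all positions here), was the most abundant subunit read. It stood at 1911 TPM (2426 reads) in W1 and 1968 TPM (2516 reads) in W2. The ratio of W1 to W2 was 0.971, with an exact interval at 95% of 0.918 to 1.03 that covers counting error only, as do all intervals here. The levels thus did not differ beyond counting error on the TPM scale, whereas FPKM and size factors put the log2 ratio at 0.26 and 0.31. Ndufa2, another accessory subunit, stood at 987 and 1120 TPM (1711 and 1955 reads).

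Ndufa8 (chromosome 2, 36036326 to 36049406, minus strand), an accessory subunit held by disulfide bonds in the intermembrane space, had the opposite order to most. It stood at 427 TPM in W1 and 170 TPM in W2, from 1114 and 446 reads. W1 was 2.51-fold higher (2.25 to 2.81). Ndufb3 (chromosome 1, 58586384 to 58595964, plus strand), a membrane arm subunit, leaned the same way, at 313 TPM in W1 and 184 TPM in W2. Its ratio of 1.70 (1.5 to 1.92) missed the 2-fold call.

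Ndufa13 (chromosome 8, 69894180 to 69902558, minus strand), also known as Grim19, stood at 218 TPM in W1 and 461 TPM in W2, from 828 and 1759 reads. W2 was 2.11-fold higher (1.94 to 2.29). That call rests on the scaling: the log2 ratio of -1.07 became -0.77 with FPKM and -0.72 with size factors, which keeps the direction and falls short of 2-fold. Its counting interval reaches below 2-fold as well. Ndufb11, encoded on chromosome X, stood at 342 and 541 TPM, Ndufb9 at 424 and 616 TPM and Ndufs8, a core subunit with iron-sulfur clusters, at 183 and 288 TPM, in W1 and W2. These 3 lay higher in W2 by 1.58-fold, 1.45-fold and 1.57-fold, each within 2-fold. Ndufc2 was the other complex I gene with over 50 TPM in both libraries, at 87.9 and 66.2 TPM.

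The further complex I genes called higher in W2 had low values. Ndufv3, a small subunit of the flavoprotein module, stood at 2.36 TPM (11 reads) in W1 and 12.8 TPM (62 reads) in W2, and was 5.42-fold higher there (2.92 to 11.8); its read numbers are rounded, as are those of Cox8a in both libraries and of Ndufs8 in W2, since these values did not fall within 0.1 read of a whole number. Ndufb5 had 18 and 52 reads, at 5.51 and 15.8 TPM. Ndufb8 had 34 and 83 reads, at 5.24 and 12.7 TPM, and its 2.42-fold difference falls short of 2-fold on the log2(TPM + 1) scale with FPKM (-0.85). Ndufb2 had 20 and 61 reads and Ndufa11 had 10 and 36. Ndufa3, Ndufc1 and Ndufs3 rested on 23 reads or fewer in each library. Ndufc1 was read only on a processed transcript that is not annotated as coding. Ndufs3 had 2 reads in W1 on a coding transcript and 9 in W2 on a processed one, so its levels are not of the same RNA. Ndufa7, Ndufa10, Ndufb4, Ndufb6, Ndufs1 and Ndufs4 were read at low levels, of 1.5 to 13.5 TPM in W1 and 0.995 to 8.31 TPM in W2. All lay within 2-fold. Of these, Ndufa7, Ndufa10 and Ndufs1 were read only on transcripts not annotated as coding. Ndufs4 had 9 reads in W1 and 23 in W2, on different isoforms, so its levels are not of the same RNA. Ndufb10, Ndufs5 and Ndufv2 had 2 reads or fewer, all in W2, and were not compared.

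Ndufa8 was the complex I gene called higher in W1 with the most reads, and the others rested on few. Ndufb7 had 15 and 0 reads, all on a transcript with a retained intron. Ndufa4, long listed with complex I and now assigned to complex IV, had 14 and 0 reads, again all on a transcript with a retained intron. The 8 genes at 0 in both libraries were Ndufa4l2, Ndufa5, Ndufa6, Ndufa9, Ndufa12, Ndufs6, Ndufs7 and Ndufv1, the last being the subunit that binds NADH.

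**Figure D4:**
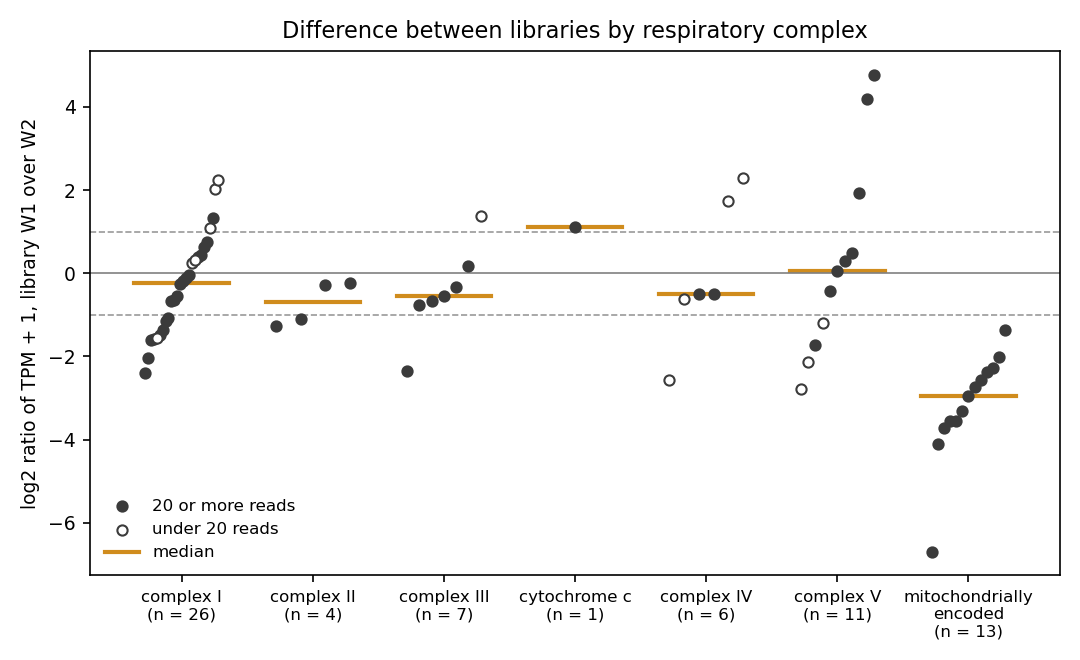
Log2 ratio of TPM + 1 in W1 over W2 for each gene compared, by complex, with the mitochondrially encoded subunits at the right; filled points have 20 or more reads, open points fewer, orange lines are medians and dashed lines mark 2-fold. The 13 mitochondrially encoded genes all lie below 0, and the highest points are Atp5j and Atp5h of complex V.

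Complex II, succinate dehydrogenase, was the only complex with every gene above 0 in both libraries. Its sum was 272 TPM in W1 and 573 TPM in W2, 2.10 times higher. Sdhb (chromosome 4, 140961203 to 140979193, plus strand), the iron-sulfur subunit, stood at 85.5 TPM (296 reads) and 207 TPM (721 reads). Sdhd (chromosome 9, 50596357 to 50603812, minus strand), a membrane anchor that binds heme and quinone, stood at 150 TPM (558 reads) and 321 TPM (1207 reads). W2 was 2.42-fold higher for Sdhb (2.11 to 2.78) and 2.15-fold higher for Sdhd (1.94 to 2.38). With FPKM the log2 ratios of these genes went from -1.26 to -0.96 and from -1.10 to -0.79, in the same direction and short of 2-fold.

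The other members of complex II lay closer together. Sdha, the flavoprotein that oxidises succinate, stood at 24.9 TPM in W1 and 29.4 TPM in W2, from 197 and 260 reads. Sdhc, the other membrane anchor, stood at 12.4 and 15.3 TPM, from 119 and 148 reads, and its ratio of W2 to W1 was 1.24 (0.964 to 1.59), within counting error. The median log2 ratio of the 4 genes was -0.69 and stayed below 0 with every alternative run, between -1.10 and -0.35. The -1.10 is the value of Sdhd alone, the only gene of the complex with 1 listed transcript.

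Complex III, the cytochrome bc1 complex, had 8 of 9 genes above 0 and 7 compared: 1 higher in W1, 1 higher in W2 and 5 within 2-fold. Its sums were 1122 and 1296 TPM. Uqcrc1 (chromosome 9, 108936633 to 108949623, plus strand), a core protein of the matrix side, stood at 9.58 TPM (48 reads) in W1 and 53.3 TPM (270 reads) in W2. W2 was 5.56-fold higher (4.10 to 7.76), a wider gap than for any other subunit with at least 50 reads and reads in both libraries. Its partner Uqcrc2 stood at 23.7 and 29.9 TPM, from 136 and 173 reads, within 2-fold.

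Uqcrfs1 (chromosome 13, 30540308 to 30545362, minus strand) encodes the Rieske iron-sulfur protein, which takes electrons from reduced coenzyme Q. It stood at 283 TPM (1169 reads) in W1 and 481 TPM (2001 reads) in W2, 1.70-fold higher (1.58 to 1.83). This passes 2-fold only with chromosome M and ribosomal protein genes left out, at a log2 ratio of -1.06. Uqcrb stood at 771 TPM (1250 reads) and 684 TPM (1116 reads), a ratio of W1 to W2 of 1.13 (1.04 to 1.22) that changed sign, to a log2 ratio of -0.12, under the same scaling. Uqcrh, at 22.6 and 33.5 TPM, was read only on a pair of transcripts with retained introns, with 17 reads in W1 and 46 in W2 on 1 of them and 20 and 19 on the other. Its log2 ratio of -0.55 was 0.079 with the highest transcript alone and -1.31 with transcripts of at least 100 private 50-mers. Uqcrq, at 8.51 and 14.1 TPM, lay within 2-fold, Uqcr10 had 1 read, in W1, and Uqcr11 was at 0 in both libraries. Cyc1, which hands electrons to cytochrome c, had 14 and 3 reads on different isoforms.

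Cycs (chromosome 6, 50562563 to 50566538, minus strand), the widely expressed cytochrome c, stood at 78.9 TPM (738 reads) in W1 and 35.7 TPM (328 reads) in W2. W1 was 2.21-fold higher (1.99 to 2.59). The log2 ratio of 1.12 became 0.83 with chromosome M and ribosomal protein genes left out, the scaling that cost it the call. The testis form Cyct was at 0 in both libraries, although its single transcript has 606 private 50-mers.

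Complex IV, cytochrome c oxidase, had the lowest share of genes above 0 among the 5 complexes: 7 of 18 were above 0, 6 were compared, and Cox8a alone held nearly all of its sum. The complex summed to 1121 TPM in W1 and 1581 TPM in W2. Cox8a (chromosome 19, 7215153 to 7217616, minus strand), the smallest widely expressed subunit, stood at 1094 TPM (1824 reads) and 1549 TPM (2600 reads). W2 was 1.42-fold higher (1.33 to 1.5), within 2-fold. Cox5b stood at 12.2 and 17.8 TPM, yet the 32 reads of W1 all lay on a coding transcript and the 41 reads of W2 all lay on a transcript with a retained intron, so these levels are not of the same RNA.

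The remaining complex IV values rest on few reads. Cox4i1, the main form of subunit 4, had 1 read in W1 and 12 in W2, while Cox7c had 10 and 1, Cox6c had 14 and 0 and Cox7b had 8 and 5. Cox7a2 had 1 and 0. Widely expressed subunits were at 0 in both libraries too: Cox5a, Cox6a1, Cox6b1 and Cox7a2l, the last known for joining complexes III and IV. The coding transcripts of Cox6a1 and Cox6b1 have at most 128 and 150 private 50-mers and those of Cox5a have 0.

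The tissue-restricted forms were at 0 in both libraries wherever they were listed. These are Cox6a2, Cox7a1 and Cox8b, known from muscle, Cox6b2, Cox7b2, Cox8c and Cyct, known from testis, Cox4i2, known from lung, and Ndufa4l2, known from low oxygen. Several of them have much sequence of their own: Cox6a2 has 610 private 50-mers, Cox7b2 has 493, Cox8c has 409 and Cox8b has 311, each on a single listed transcript. At 3 reads, the limit that a count of 0 allows for Cox6a2 was 1.46 TPM in W1, and for Cox8b it was 2.75 TPM. Over the 10 sets of alternative forms followed, 12 of 22 listed genes were at 0 in both libraries.

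Promoter sequences are shown for Cox8a, which was read, and for Cox8b, its muscle form, which was not. They run from 5′ to 3′ on the coding strand up to 10 bases past the start site and are from RefSeq on GRCm38.p6, and Sdhd is added as an example with a match to the motif of NRF1, a regulator of respiratory chain genes. Capitals mark matches, on either strand, to the motifs searched: GCGCA and GCGC with any 1 base between them for NRF1, CCGGAAGT for ETS factors such as GABP, AAGATGGCG for YY1 and TATAAA for a TATA box, none of which overlaps another here.
Sdhd, chr9:50603840-50603934, minus strand: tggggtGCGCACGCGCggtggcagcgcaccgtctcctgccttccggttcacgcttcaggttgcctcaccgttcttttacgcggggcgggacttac
Cox8a, chr19:7217607-7217816, minus strand: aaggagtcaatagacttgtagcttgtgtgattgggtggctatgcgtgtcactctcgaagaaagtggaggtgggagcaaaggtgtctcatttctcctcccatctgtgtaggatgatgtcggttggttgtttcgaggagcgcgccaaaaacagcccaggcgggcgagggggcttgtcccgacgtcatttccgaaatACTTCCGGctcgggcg
Cox8b, chr7:140900437-140900646, minus strand: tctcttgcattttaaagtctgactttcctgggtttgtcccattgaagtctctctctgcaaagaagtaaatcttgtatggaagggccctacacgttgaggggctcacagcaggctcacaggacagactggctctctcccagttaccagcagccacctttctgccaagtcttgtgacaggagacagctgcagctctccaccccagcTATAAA
The match of Sdhd begins at position -79 from the start site and lies in the first exon of the neighbouring gene Timm8b, which is transcribed the other way. The ETS match of Cox8a is on the other strand, begins at -6, spans the start site, and is followed by another at 32, outside the stretch shown. Cox8b has no NRF1, ETS or YY1 match in its window, and its TATAAA begins at 5, past the start site.

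RefSeq promoters, from 250 bases before to 50 bases after the start site, matched 70 of the 87 symbols. The NRF1 motif was in 17 of the 70 (24.3%), against 5.19% of all 27025 genes with a promoter and 11.1% of nuclear protein-coding genes at 1 TPM or more. The YY1 motif was in 7 (10%), against 1.64% and 3.57%, the ETS motif in 5 (7.14%), against 4.31% and 8.79%, and TATAAA in 7 (10%), against 15.7% and 8.95%. Genes with the NRF1 motif had both orders between the libraries: Ndufa8 and Atp5h were called higher in W1, and Ndufa11, Sdhd, Uqcrc1, Atp5k and Atp5o in W2. Of the 5 tissue-restricted forms with a promoter, 0 had an NRF1, ETS or YY1 match and 2, Cox7b2 and Cox8b, had TATAAA. A match is a description of letters in the window and not a measured site.

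Complex V, ATP synthase, had 14 of 18 genes above 0 and 11 compared: 3 higher in W1, 4 higher in W2 and 4 within 2-fold. Its sums were 134 TPM in W1 and 204 TPM in W2, the lowest of the 5 complexes in both libraries. Unlike in the other complexes, no gene of complex V that was read has a single listed transcript. Genes whose isoforms overlap may have levels that are too low, so this rank is not shown to be one of RNA amount. Atp5b (chromosome 10, 128083273 to 128090391, plus strand), the catalytic beta subunit, had the highest level among the genes of the complex in both libraries. It stood at 46.7 TPM (270 reads) and 157 TPM (916 reads), and W2 was 3.36-fold higher (2.94 to 3.87). Its partner in the F1 head, Atp5a1, stood at 4.2 and 6.01 TPM (34 and 49 reads), within 2-fold. Atp5d, of the central stalk, had 0 reads in W1 and 9 in W2. Atp5k had 0 and 10 reads, and Atp5o, of the stalk that holds the head in place, had 1 and 6. The calls of these 3 genes rest on few reads, all on transcripts that are not annotated as coding.

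Of the genes of the ring of c subunits, Atp5g2 and Atp5g3 were compared and lay within 2-fold. Atp5g2 stood at 14.4 TPM (30 reads) in W1 and 11.7 TPM (26 reads) in W2, on 3 coding transcripts in W1 and 1 in W2. Its log2 ratio of 0.28 was -0.62 with the highest transcript alone and 3.03 with transcripts of at least 100 private 50-mers, so it had no direction that held. Atp5g3 stood at 14.9 and 10.3 TPM, read only on a processed transcript that is not annotated as coding. Atp5g1 had 1 read, in W2, as did Atp5e, and Atp5j2 had 3, in W1. Atp5f1, of the peripheral stalk, stood at 6.98 and 6.74 TPM, from 24 and 33 reads. Its coding transcript held 15 of the 24 reads in W1, with the rest on retained-intron transcripts, and all 33 in W2. The log2 ratio of Atp5f1, 0.044, was -0.92 with protein-coding transcripts only. The gamma subunit gene Atp5c1 was at 0 in both libraries, as were Atp5mpl, Atp5s and the Atp5o identifier that is not among the genes compared.

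The genes of complex V that were called higher in W1 were read on isoforms that are mostly not coding. Atp5j had 41 reads in W1 and 0 in W2, of which 3 lay on a coding transcript, and was at least 13.8-fold higher in W1, with 3 reads set as the floor of W2. Atp5h had 25 and 0 reads, all on processed transcripts, and was at least 8.39-fold higher. Atp5l had 54 and 0 reads, all on a retained-intron transcript of 6310 bases, and was at least 18.1-fold higher. No coding transcript of Atp5h or Atp5l had a read in either library, and these transcripts have at most 112 private 50-mers in Atp5h and 0 in Atp5l.

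Isoforms that are not annotated as coding were read in more places in W1 over the whole table. Among 41269 such transcripts of nuclear protein-coding genes, 4708 had reads in W1 and 2403 in W2, with 5.26% and 3.01% of these genes' reads. In the subunits the shares were lower, at 2.02% and 1.16% of reads. However, 71.4% of the subunits' reads in each library lay on genes whose 1 listed transcript is coding. Such genes can hold no noncoding reads, so the lower shares are not shown to be a trait of the subunits. Noncoding isoforms weigh more in the counts of genes, and 14 of the 55 subunits compared were read only on them. Among the called subunits this held for 5 of the 11 higher in W1 and 4 of the 17 higher in W2. The same counts over all genes compared are not given here, so these are not shown to be particular to the subunits. Counting coding transcripts only, 7 subunits were called higher in W1 and 12 in W2, of 39 compared. These are 17.9% and 30.8%, against 28.5% and 34.2% of 7168 genes. With over 3 reads in W1 and 0 in W2 there were 6 subunits: Ndufa4, Ndufb7, Cox6c, Atp5h, Atp5j and Atp5l. Of these, only Atp5j had a coding read. The reverse, over 3 reads in W2 and 0 in W1, held for 2 subunits, Atp5d and Atp5k, neither with a coding read. Neither count is set beside all genes here.

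The subunits encoded on chromosome M differed far more than their nuclear partners. All 13 were higher in W2, with log2 ratios of -6.69 to -1.37 and a median of -2.95. Their sum was 20040 TPM in W1 and 129014 TPM in W2, 6.44 times higher. The ratio of -6.69 is that of mt-Nd4l, with 10 reads in W1 and 1131 in W2. With 0 to 6 private 50-mers, mt-Co2, mt-Co3, mt-Atp6, mt-Nd3 and mt-Nd4l may have levels that are too low in both libraries. In complex V, mt-Atp6 had 167 and 2245 reads and mt-Atp8 had 6 and 77. By complex, the mitochondrially encoded sums were higher in W2 by 4.73 times in complex I, 11.6 times in complex III, 6.82 times in complex IV and 13.3 times in complex V. The nuclear sums of the same complexes were higher by 1.12, 1.16, 1.41 and 1.51 times. With FPKM the mitochondrially encoded ratios were 3.83, 9.42, 5.52 and 10.8, all still above 1, while the nuclear ones were 0.904, 0.935, 1.14 and 1.23, so the nuclear sums of complexes I and III changed direction. The 2 kinds differed by unequal amounts on either scale, and this was not tested.

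Other genes that serve the chain were followed in lists. Of 50 assembly factors, which build the complexes and insert their cofactors, 34 were compared: 9 higher in W1, 12 in W2, median log2 ratio -0.74. Cox15, which makes heme A for complex IV, had 183 reads in W1 and 0 in W2, at least 61.4-fold higher. Sco1, which carries copper to complex IV, had 0 and 51 reads, at least 16.9-fold higher in W2. The order was thus opposite for these factors of the same complex.

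Of 13 genes of coenzyme Q synthesis and handling, 6 were compared, 4 were higher in W2 and 0 in W1, median -1.25. Coq10b, which binds coenzyme Q, stood at 86.8 and 405 TPM, and Coq2, which attaches its side chain, at 30.9 and 20.1 TPM. Of 18 regulators of mitochondrial gene expression and biogenesis, 14 were compared, 7 were higher in W2 and 0 in W1, median -0.97. Nrf1 stood at 8.32 and 25.7 TPM, from 39 and 77 reads over 20 listed transcripts. Its ratio of W2 to W1, 3.08, lies outside its counting interval of 1.32 to 2.96, which takes no account of transcript length. Pprc1, a coactivator, stood at 23.6 and 78.5 TPM, and Twnk, the helicase of mitochondrial DNA, at 0.378 and 11.0 TPM (4 and 117 reads). Gabpa, at 34.96 and 29.95 TPM, and Tfam, which packages mitochondrial DNA, at 17.3 and 20.8 TPM, lay within 2-fold.

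A list of 10 carriers and channels held Vdac1, Vdac2 and Vdac3 of the outer mitochondrial membrane beside carriers of the inner one. Of these 10, 7 were compared, 1 was higher in W1 and 3 in W2, median -0.65. Slc25a4 and Slc25a5, which exchange ADP for ATP, stood at 81.3 and 184 TPM in W1 and at 349 and 501 TPM in W2. Ucp2, an uncoupling protein homologue, stood at 4.47 and 152 TPM, and the phosphate carrier Slc25a3 at 28.9 and 15.0 TPM. Ndufab1, a subunit of complex I whose symbol falls outside the rule, stood at 1.90 TPM (20 reads) in W1 and 11.6 TPM (111 reads) in W2. The lists were not tested, and their counts are to be read beside the 34.7% and 32.9% of all genes that were called.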

How the data were processed

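The authors deposited TPM and FPKM values for 137767 transcripts in 2 libraries. Bowtie 0.12.2 and the builds mm8 and GRCm38 come from the submitters' processing notes, which give no role to them; the sources used here do not give the counting tool, the annotation or whether strand was used. Transcripts were matched to GENCODE M21 on GRCm38 (113 without a match) and summed per gene. Whole reads were recovered from FPKM times transcript length: within 0.1 read, 98.5% and 98.0% of transcripts above 0 in libraries W1 and W2 came out whole. Intervals are exact Clopper-Pearson intervals at 95% on reads and the floor is 3 reads; the reads carry no molecular identifiers.

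Ratios used a pseudocount of 1 TPM and required 1 TPM in either library. With 1 library of each and no group, no test was made. Named in full were, per complex, up to 6 subunits with the largest and 3 with the smallest absolute log2 ratio among those with at least 50 reads, all Sdh genes and the paralogue sets, and up to 4 genes per list. Other subunits were named after their values were seen, and 1 gene's own values are not reported here. The members and lists were chosen with earlier results of these data known. Read recovery and the 2-fold calls were tested on simulated data with counting noise only. The planted changes were above 2-fold, toward W1 and in genes with at least 20 expected reads. How well calls recover smaller changes, changes toward W2 or changes in genes with fewer reads was not tested. Scripts ran in Python 3.11.15 (matplotlib 3.10.9, pandas 2.3.3, scipy 1.17.1, numpy 2.4.6).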

Additional observations from a re-analysis of the deposited data

How the results depend on the processing

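The median log2 ratio of the subunits, -0.33 as reported, was -0.50 with 1 TPM required in both libraries, -0.43 with at least 20 reads, -0.031 with FPKM, 0.025 with size factors, -0.59 without chromosome M and ribosomal protein genes and -0.54 with the highest transcript of each gene. Among alternatives chosen after seeing the data it was -0.11 with TPM rescaled over nuclear protein-coding genes, -0.44 with protein-coding transcripts and -0.58 with genes of 1 listed transcript. The 11 subunits higher in library W1 became 2 with 1 TPM required in both libraries, 5 with at least 20 reads, 5 with a pseudocount of 5, 7 with protein-coding transcripts and 1 with genes of 1 listed transcript. The 17 higher in library W2 became 11 with a pseudocount of 5 and 2 with genes of 1 listed transcript. Stricter filters and the last alternative leave fewer genes; otherwise the cause was not tested. The medians of complexes III and II stayed below 0 with every alternative run, from -0.84 to -0.21 and from -1.10 to -0.35. Those of complexes I (-0.65 to 0.10), IV (-1.36 to 1.59) and V (-0.62 to 0.39) changed sign. The medians of complexes III and II rest on only 7 and 4 genes compared. With genes of 1 listed transcript they rest on Uqcrfs1 and Sdhd alone. The complex III median of -0.55 is the value of Uqcrh, which was read only on transcripts with retained introns. No paired analysis was possible because the libraries carry no group and no replicate number. Depth limits subunits under about 20 reads, and shared isoform sequence may hide others.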
